A study of Mus with 15 samples.

Results

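The genes described here are those of the proteins of the cytosolic ribosome, measured by RNA-seq in mouse skin. They were taken from the deposited gene count table as protein-coding models whose symbol begins with Rpl or Rps followed by a digit, together with Rplp0, Rplp1, Rplp2 and Rpsa. Kinase genes beginning with Rps6k and models named as pseudogenes were left out. The name rule found 86 models, and 85 of them had at least 10 counts in at least 5 libraries, of 55657 gene models in the table. The model left out, Rpl10l, had 0 counts in all 15 libraries. Of the 85 genes, 46 encode proteins of the large subunit (3 of them in the P stalk), 31 encode proteins of the small subunit and 7 are paralogs or retrogenes (Rpl3l, Rpl22l1, Rpl36al, Rpl39l, Rpl7l1, Rps27l and Rps27rt). The remaining gene, Rps19bp1, shares the name but encodes a protein that binds the small-subunit protein Rps19 and is not a subunit. The genes lie on 19 chromosomes, and all 85 had enough counts to be tested.

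A ribosome holds each of its core proteins in about equal number, so cells make these proteins in step, from genes scattered over the genome. Their mRNAs begin with a terminal oligopyrimidine tract, through which growth signals that pass by mTORC1 and the RNA-binding protein Larp1 set their translation and stability. Growing and dividing cells, such as basal keratinocytes at a wound edge, hold many ribosomes, and the mRNAs of these genes are among the most abundant in most tissues.

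The 15 libraries form 3 groups of 5: uninjured skin of healthy mice, labelled sham (normal skin), skin of healthy mice after wound surgery (healthy wound), and skin of type I diabetic mice after wound surgery (diabetic wound). Both wound groups share the surgery, and diabetic wounds differ from normal skin in disease and in injury together. No uninjured skin of diabetic mice was analysed here. The labels used here give no strain, age, sex, time after surgery or way of inducing diabetes. They do not tie libraries to single mice either, so the spread behind every p-value is that of these libraries and may in part be technical. Libraries held between 15693964 and 17777165 counts.

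Several libraries stood apart. Normal skin replicate 2 had the fewest genes detected (19916, against 22146 to 24686 in the other libraries of healthy mice) and the lowest level of 56 of the 85 genes. Diabetic wound replicate 1 had the highest level of 70 of them. Diabetic wound replicates 4 and 5 lay with the healthy mice in their ribosomal protein gene levels, while replicates 1 to 3 lay above. Replicates 1 to 3 of normal skin and of healthy wound lay apart from the other 9 libraries in counts on some processed copies, Rps2-ps10 and Rpl9-ps6 among them: Rps2-ps10 had 2.42 to 12.6 CPM (counts in proportion to all counts of the library, scaled per 1e6) in those 6 libraries and 30.8 to 72.5 CPM in the other 9. The share of counts on all processed pseudogenes overlapped, at 0.442% to 0.490% and 0.460% to 0.799%, as did Rps10-ps2. Of the 85 genes, 2 (2.35%) lay higher in all of replicates 4 and 5 of the healthy mice than in all of replicates 1 to 3. The same held for 2.6% of all models with 10 counts in 5 libraries. Rpl21 was among the genes, with 34.5 to 89.0 and 106 to 143 CPM, and 69.5 to 168 CPM in diabetic wounds. All diabetic libraries were among the 9, so this split cannot be fully told apart from the diabetic comparisons. The labels name no batch. Counts of called genes, and values of some single genes, are given with and without these libraries. Leaving out replicates 1 to 3 of the healthy mice keeps only replicates 4 and 5 of normal skin and of healthy wound, so such a fit has less power.

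Ribosomal protein genes took a larger mean share of all counts in diabetic wounds than in the other groups, with 3 of the 5 diabetic libraries above the range of the healthy mice and the others within it. The share was 4.49%, 2.93%, 3.72%, 4.45% and 4.79% in normal skin replicates 1 to 5. In healthy wounds it was 4.11%, 4.09%, 4.27%, 5.07% and 3.65%, and in diabetic wounds 7.96%, 6.34%, 5.96%, 4.06% and 4.201%. Diabetic replicates 1 to 3 thus lay above all 10 libraries of healthy mice, and replicates 4 and 5 lay among them. The mean share was 4.07 ± 0.750% in normal skin, 4.24 ± 0.518% in healthy wounds and 5.70 ± 1.62% in diabetic wounds (SD, n = 5 per group). The ratio of mean shares was 1.40 for diabetic wound against normal skin, 1.35 for diabetic against healthy wound and 1.04 for healthy wound against normal skin. On the log2 scale these ratios were 0.486, 0.428 and 0.058. With 1 library left out at a time they ran from 0.336 to 0.586, from 0.278 to 0.528 and from −0.040 to 0.122. In tissue libraries such as these, a change in the number of cells of a type and a change in RNA per cell cannot be told apart.

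**Figure D1:**
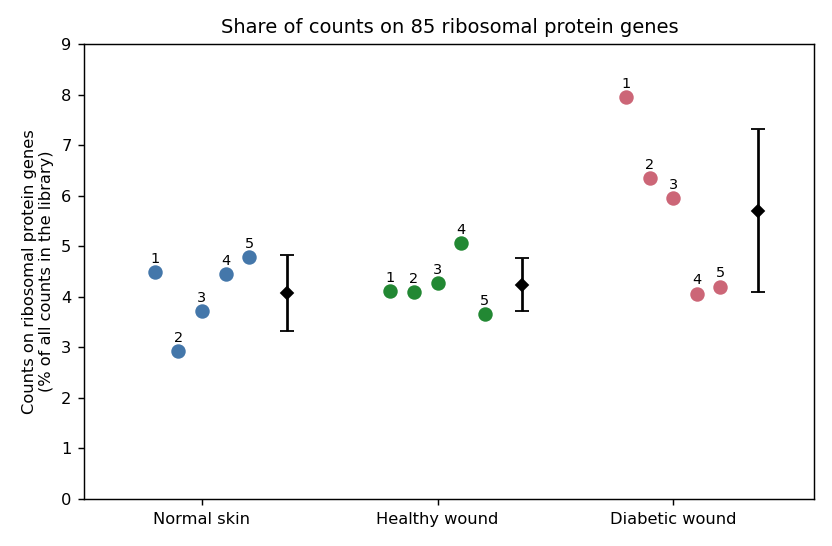
Counts on the 85 ribosomal protein genes as a percentage of all counts, for each library (numbered by replicate) in the 3 groups; the diamond and bars beside each group are the mean and SD over 5 libraries. Diabetic wound replicates 1 to 3, at 5.96% to 7.96%, lie above every library of healthy mice, while replicates 4 and 5 lie at 4.06% and 4.201%.

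The balance of the 2 subunits also varied a little between libraries, given here as values with no test. The counts on large-subunit genes divided by those on small-subunit genes came to 1.26, 1.21, 1.26, 1.33 and 1.29 in diabetic replicates 1 to 5. In normal skin replicate 2 the ratio was 1.26, and the other 9 libraries of healthy mice lay between 1.30 and 1.35. The 4 libraries with the lowest ratios were therefore the 3 diabetic wounds with the highest shares and the normal skin library with the lowest share.

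The makeup of the tissue also differed among the diabetic libraries. Summed over 5 basal keratinocyte markers, diabetic replicates 1 to 5 held 9316, 8145, 18810, 1156 and 2633 CPM, so the 3 libraries with a high ribosomal protein share were also the 3 with the most keratinocyte RNA in that group. Among those 3 the order was not kept, as replicate 3, with 18810 CPM, had the lowest share, 5.96%. The libraries of healthy mice spanned 3728 to 13761 CPM for the same markers. Normal skin replicates 4 and 5, at 13761 and 13590 CPM, had shares of 4.45% and 4.79%. Diabetic replicates 4 and 5 also held the most skeletal muscle marker RNA of their group (15461 and 18951 CPM). Their cornified epidermis markers were the lowest of the group (424 and 1051 CPM). In diabetic replicates 4 and 5, 6 adipocyte markers summed to 5859 and 5914 CPM, against 416 to 690.5 CPM in replicates 1 to 3 and 402 to 2407 CPM in healthy mice. Fibroblast markers summed to between 1705 and 16286 CPM in diabetic wounds, where healthy wounds had 23369 to 97368 and normal skin 30736 to 50949 CPM. Of the 10 neutrophil markers, 9 were called higher in diabetic wounds than in normal skin, and 5 in healthy wounds than in normal skin. Of all genes, 10.7% and 0.777% were called higher in those 2 comparisons. The sum of the neutrophil markers, at most 365 CPM in normal skin, reached 4070 CPM in healthy and 4202 CPM in diabetic wounds. Lymphocyte markers summed to at most 31.9 CPM in any library, and the hair matrix genes Krt31, Krt35 and Krtap3-1 were at 0 in all diabetic libraries. The part of these tissue differences in the ribosomal protein gene levels was not tested.

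Levels differed widely among the genes. The mean over 15 libraries ran from 1.30 CPM for Rpl36al to 2043 CPM for Rplp0, with a median of 475 CPM over the 85 genes, and 73 genes lay above 100 CPM. Per kilobase of the gene length given in the table, Rplp1 of the P stalk had the highest level, at 2648 CPM per kb. The small-subunit gene Rps3a1 followed at 1234, Rplp0 at 1232, Rpl41, which encodes the smallest ribosomal protein, at 955 and Rps15 at 874 CPM per kb. Rps3a1 and Rplp0 did not differ beyond the spread of their libraries, which ran from 749.8 to 2158 and from 957 to 1766.5 CPM per kb.

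Some genes with low values overlap other models. Rpl24, Rpl13a, Rpl36al and Rps10 had mean levels between 1.30 and 32.3 CPM, far under most core genes. In the table each of them overlaps another model on its own strand over 76.9% to 98.7% of its span, and that model had 0 counts in all 15 libraries. Rpl13, at a mean of 1176 CPM, overlaps such an empty model over its whole length, and Rpl19 overlaps another over 1% of its span. How reads in shared parts were counted is not known from the labels or the table, and its part in these levels was not tested. In all 23 genes, Rps10 among them, overlap the span of a model on the other strand. The kit does not mark strand, so reads from any shared exon cannot be told apart. Only spans were compared, introns included, and the partners ranged from empty models to well counted ones.

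Counts were also split between genes and their processed copies. The table holds 298 models named as pseudogenes of ribosomal protein genes, and 60 of the 85 genes have at least 1. For 56 of the 85, counting those with no named copy, copies took under 1% of the counts on gene and copies together. Rps10 was the extreme: its own model held 0 to 114 counts per library, while its 4 named copies held 1895 to 4281, or 98.1% of the total, nearly all of them on Rps10-ps2. The copies took 66.9% for Rpl17, 52.3% for Rpl21, 37.2% for Rps12 and 20.9% for Rpl7a. Values of these 5 genes are uncertain to that extent.

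**Figure D2:**
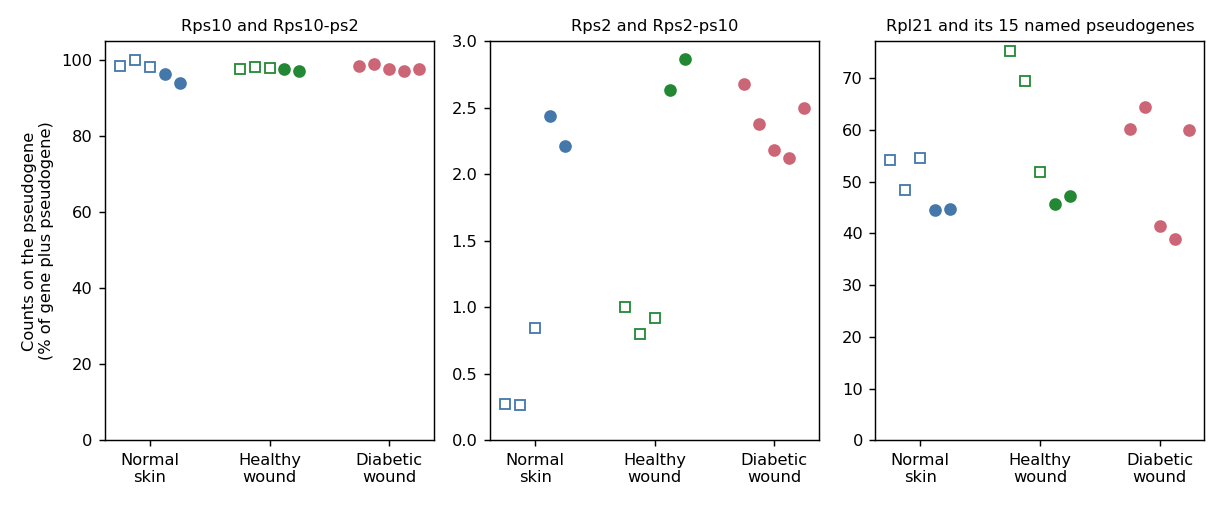
Counts on named pseudogenes as a percentage of the counts on gene plus pseudogene, for each library in the 3 groups, in 3 panels (Rps10 with Rps10-ps2, Rps2 with Rps2-ps10, Rpl21 with its 15 named pseudogenes; the vertical scales differ, and each starts at 0). Open squares are replicates 1 to 3 of normal skin and healthy wound and filled circles are the other 9 libraries; for Rps2 the open squares all lie lower, and for Rps10 nearly all counts fall on the copy in every group.

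The genes varied together. In a principal component analysis of their log2 CPM, the first component held 59.6% of the variance and the second 12.505%. Across the 15 libraries a core gene had a median SD of 0.43 on the log2 scale, and this came to 0.20 after the median of all 85 genes in each library was taken away. The 7 paralogs had a median SD of 0.49 before and 0.65 after, but differed among themselves: Rpl22l1 went from 0.39 to 0.21 and Rps27l from 0.49 to 0.23, close to the core genes. The SD after was highest for Rpl3l, at 1.60, followed by Rps27rt at 0.80 and Rpl24 at 0.76. Genes of 1 library share its depth and scaling, so these values are descriptions.

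**Figure D3:**
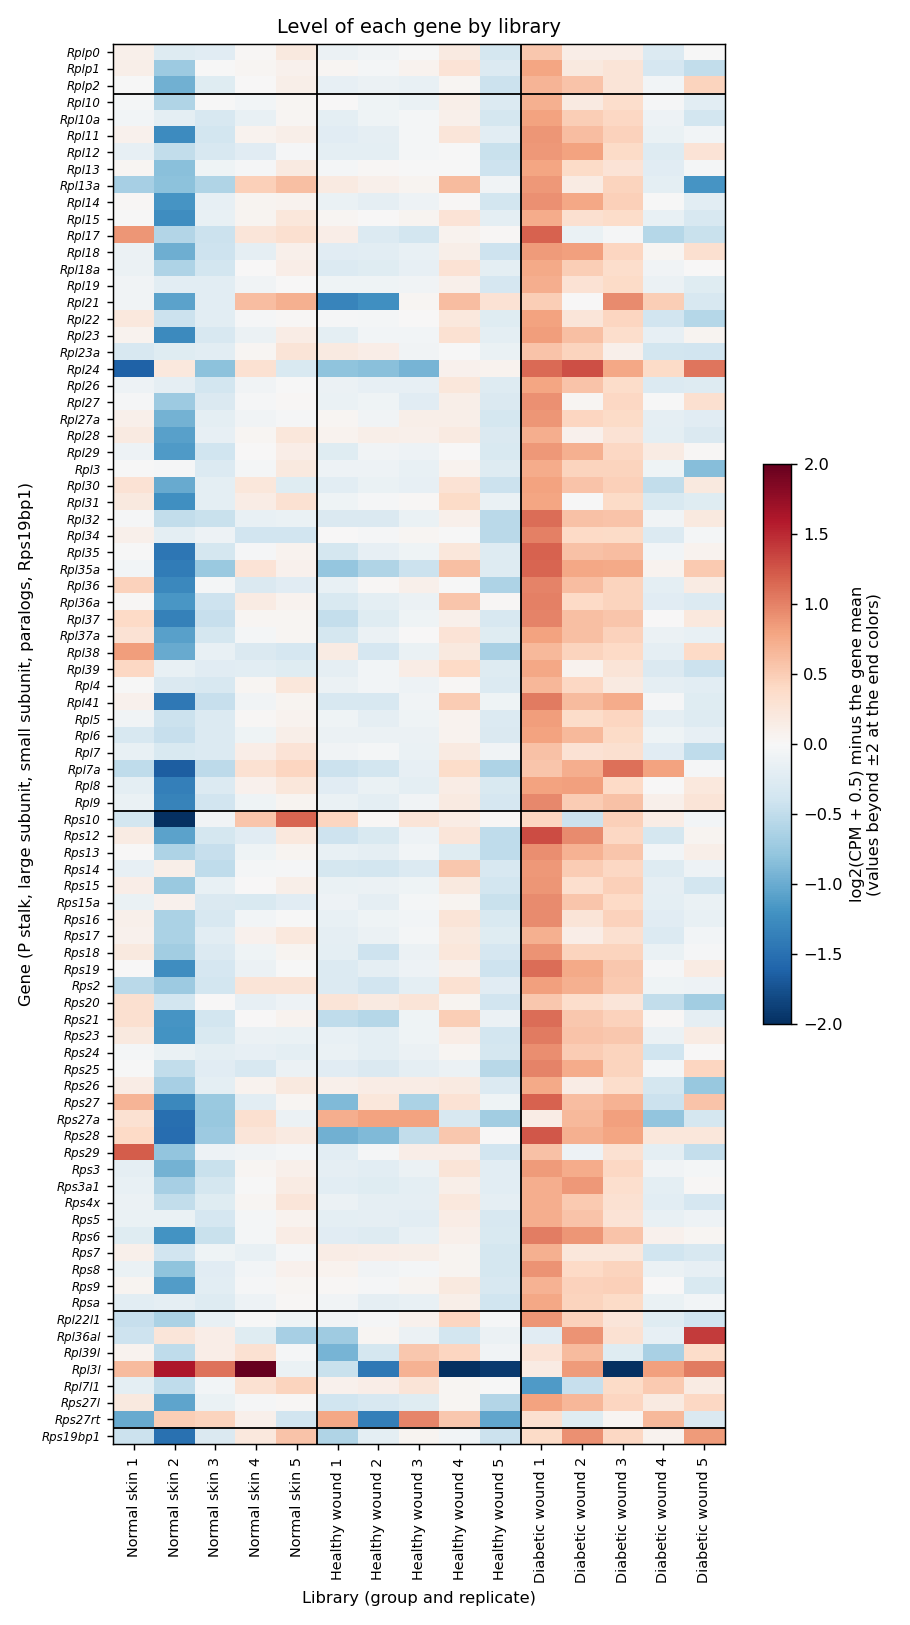
Levels of the ribosomal protein genes in each of the 15 libraries, as log2(CPM + 0.5) minus the mean of that gene over all libraries; rows are grouped as P stalk, large subunit, small subunit, paralogs and Rps19bp1, and columns by group. Diabetic wound replicate 1 is the highest library for 70 genes and normal skin replicate 2 the lowest for 56, over all 85 genes, while Rpl3l, Rpl24 and Rps27rt follow patterns of their own.

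Normal skin replicate 2 was low unevenly. Its levels had a median of 0.584 times the mean of the other 4 normal skin libraries, and 34 of the 85 genes lay under 0.5 times. Rps28 stood at 0.326 times and Rpl11 at 0.423 times, while Rpl3 stood at 0.994, Rpsa at 0.968, Rps14 at 1.22 and Rps15a at 1.25 times. Diabetic replicate 1 was high more evenly, with 52 genes above 1.5 times the mean of the other 4 diabetic libraries.

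Healthy wounds and normal skin did not differ in any ribosomal protein gene past the threshold. The edgeR quasi-likelihood test, adjusted over all 17122 genes tested, called 0 of the 85 genes at an adjusted p under 0.05, where 1.13% of all genes were called, 0.777% higher and 0.35% lower. At an unadjusted p under 0.05 it found 1 gene, Rpl3l, against 16.3% of all genes, and DESeq2 called that same gene. The median log2 fold change of the 85 genes was 0.05, beside 0.01 over all genes tested, and 79 of the 85 lay within 0.25 of 0. The SE of a single gene ran from 0.19 to 0.69 with a median of 0.24, so differences of that order, and larger ones, could be missed. Rpl3l, at −1.95 with the highest SE, was not called by edgeR. No gene had groups that did not overlap, against 3.83% of all genes higher and 2.8% lower.

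Rpl3l, a paralog of Rpl3 made in skeletal and heart muscle, had the lowest fold change in that comparison. Its level in normal skin was 25.02, 50.5, 34.7, 68.0 and 14.6 CPM in replicates 1 to 5. In healthy wounds it was 11.7, 5.62, 26.3, 2.94 and 3.902 CPM, and in diabetic wounds 17.9, 29.4, 1.91, 28.7 and 33.5 CPM. Healthy wounds were low in 4 of 5 libraries, and the 3 groups overlapped. The log2 fold change of healthy wound against normal skin was −1.95 (SE 0.69, edgeR adjusted p = 0.168). The 10 skeletal muscle markers summed to 3476 to 30549 CPM in normal skin. In the wounds the sum was between 1451 and 10464 CPM in healthy and between 1991 and 18951 CPM in diabetic mice, so the groups overlapped. Of the 10 markers edgeR called 0 in healthy wounds and 1 lower in diabetic wounds against normal skin. The lowest Rpl3l level, in diabetic replicate 3, came with 1991 CPM of those markers. The share of muscle in the samples was not tested as a cause of the Rpl3l values.

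**Figure D4:**
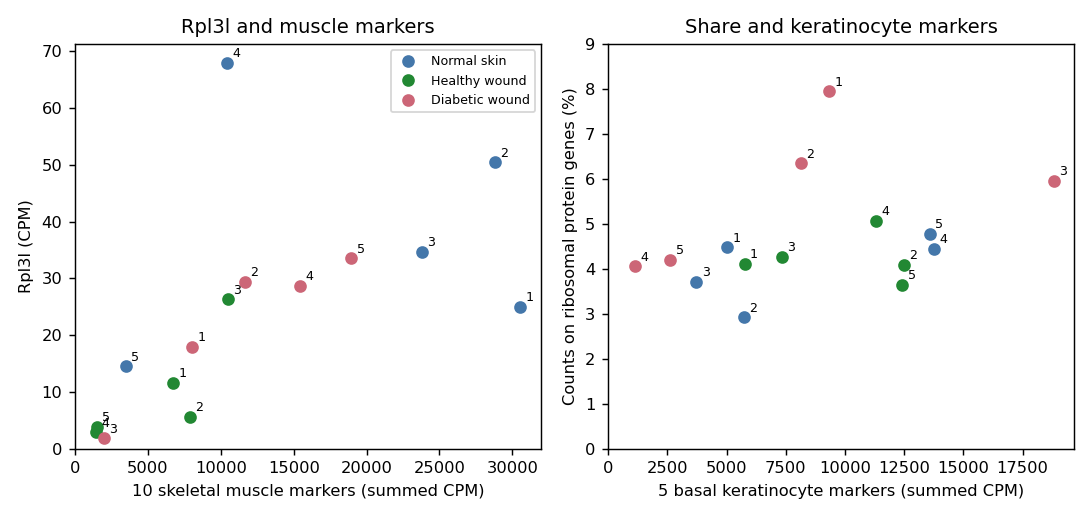
Left, Rpl3l in CPM against the summed CPM of 10 skeletal muscle markers; right, the share of counts on the 85 ribosomal protein genes against the summed CPM of 5 basal keratinocyte markers; each point is a library, numbered by replicate and colored by group. The 2 healthy wound libraries under 1500 CPM of muscle markers and diabetic replicate 3 have the 3 lowest Rpl3l values, and in the right panel diabetic replicates 4 and 5 have the fewest keratinocyte markers of all libraries, with a share within the range of the healthy mice.

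Rps27a, which encodes ubiquitin fused to a small-subunit protein, had the highest fold change of healthy wound against normal skin. Its level was 330, 93.2, 157, 335 and 247 CPM in normal skin and 441, 467, 468, 213 and 165 CPM in healthy wounds. Diabetic wounds had 296, 419, 471, 154 and 209 CPM. The first 3 healthy wound replicates lay above all normal skin libraries and the last 2 among them. The log2 fold change was 0.58 (SE 0.40, edgeR adjusted p = 0.530), and it turned to −0.55 when replicates 1 to 3 of the healthy mice were left out. That fit keeps few libraries of both groups. Rpl13a, often used as a reference gene, stood at 0.28 (SE 0.36) and Rps29 at −0.26 (SE 0.31) in the same comparison, and both also changed sign without those replicates, to −0.15 and 0.03.

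Diabetic wounds against normal skin gave the largest number of calls, all in the same direction. The test called 15 of the 85 genes higher and 0 lower, where 10.7% of all genes were called higher and 8.44% lower (19.1% in either direction). At an unadjusted p under 0.05, 50 of the 85 passed, against 35.8% of all genes. Of the 85 genes, 82 had a positive log2 fold change, with a median of 0.53 beside −0.01 over all genes tested. The called genes were 1 of 3 in the P stalk (Rplp2), 8 of 43 others in the large subunit (Rpl9, Rpl12, Rpl18, Rpl24, Rpl29, Rpl32, Rpl35 and Rpl35a), 5 of 31 in the small subunit (Rps6, Rps13, Rps19, Rps23 and Rps25) and 1 of 7 paralogs (Rps27l). Groups did not overlap for 2 genes, Rpl9 and Rpl24, which is 2.35% beside 5.47% of all genes higher and 5.58% lower. Leaving out a single library gave 4 calls without diabetic replicate 2, 8 without diabetic replicate 1, 9 without normal skin replicate 3 and 29 without diabetic replicate 4. The count was 48 without diabetic replicates 4 and 5 together and 4 without normal skin replicate 2 and diabetic replicate 1. It was 0 without replicates 1 to 3 of the healthy mice and 0 in a fit of the 2 groups alone. The first of these fits keeps only replicates 4 and 5 of the healthy mice, and the part of lost power in that 0 was not tested. Diabetic replicates 4 and 5 were set aside for their low levels of these same genes, so the rise to 48 follows from that choice. The share of all genes called in each of these fits is not given here, so a changed count may be one of all genes.

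The same direction held against healthy wounds, with fewer calls. There 6 of the 85 genes were called higher (Rpl18, Rpl24, Rpl32, Rps13, Rps25 and Rps27l) and 0 lower, where 5.13% of all genes were called higher and 4.02% lower (9.15% in either direction). At an unadjusted p under 0.05, 38 of the 85 passed, against 28.8% of all genes. The median log2 fold change was 0.48 beside −0.02 over all genes, and 80 genes had a positive value. Groups did not overlap for 5 genes (Rpl24, Rpl29, Rps19bp1, Rps25 and Rps27l), which is 5.88% beside 4.9% of all genes higher and 4.86% lower. The 2 diabetic comparisons share the diabetic libraries, so they are not independent. Single libraries decided this count as well: it was 17 without normal skin replicate 2, 12 without diabetic replicate 4, 3 without diabetic replicate 5 and 0 without diabetic replicate 2. It was 1 without diabetic replicate 1 and 0, 1, 1, 2 and 0 without healthy wound replicates 1 to 5. It was 21 without diabetic replicates 4 and 5. It was 0 without replicates 1 to 3 of the healthy mice, a fit that keeps only replicates 4 and 5 of those mice and has less power. As above, the rise to 21 follows from setting aside low libraries. The share of all genes called in each of these fits is not given here either.

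**Figure D5:**
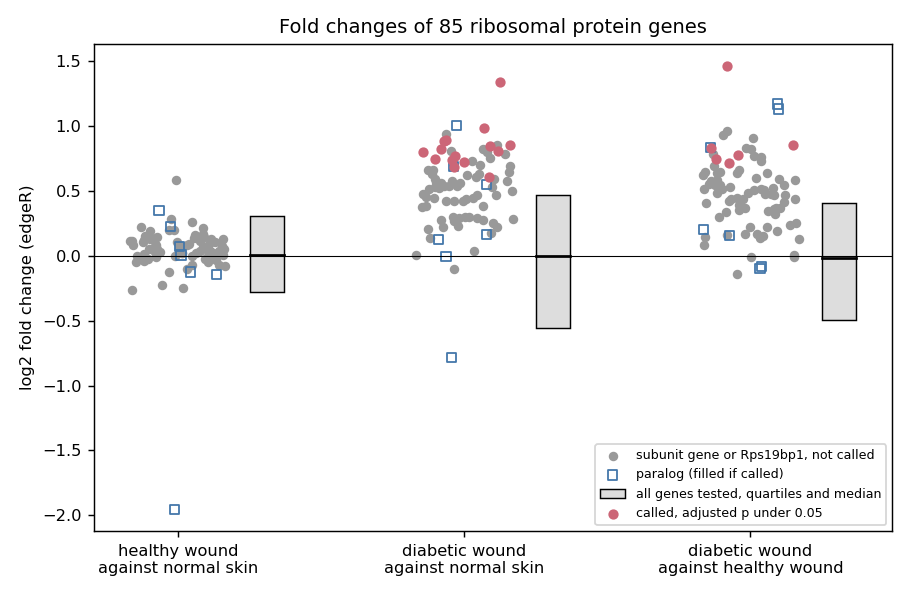
Log2 fold changes of the 85 genes in the 3 comparisons (each point a gene, spread sideways at random; squares are paralogs, red points are called at an edgeR adjusted p under 0.05), with a box for the quartiles and median of all 17122 genes tested. The genes sit close to 0 in healthy wound against normal skin, apart from Rpl3l at −1.95, and mostly above 0 in both diabetic comparisons.

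In the P stalk, the lateral arm of the large subunit that recruits translation factors, the 3 genes ranged from 0.18 to 0.60 against normal skin. Rplp2 had 402, 208, 341, 404 and 438 CPM in normal skin, 362, 372, 366, 416 and 299 CPM in healthy wounds and 648, 598, 484, 389 and 550.0 CPM in diabetic wounds. Of the diabetic libraries, 4 lay above all 10 of the healthy mice and replicate 4 lay among them. Its log2 fold change was 0.60 against normal skin (SE 0.20, edgeR adjusted p = 0.0460) and 0.58 against healthy wounds (SE 0.20, adjusted p = 0.0733), and the call was lost in 10 of the 15 fits without a library. Rplp0, the base of the stalk and a common reference gene in skin studies, had a mean of 1988 ± 269 CPM in normal skin, 1934 ± 255 in healthy wounds and 2208 ± 461 in diabetic wounds (SD, n = 5 per group). Its log2 fold changes were 0.18 and 0.22 in the diabetic comparisons, with an SE of 0.19 in both. Rplp1 stood at 0.25 and 0.16, with an SE of 0.25.

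Among the large-subunit genes, Rpl9 (chromosome 5, 65388364 to 65391444, minus strand; the build is not given in the sources used here) had 457, 197, 381, 471 and 517 CPM in normal skin. It had 455, 438, 475, 565 and 396 CPM in healthy wounds and 971, 711, 752, 537 and 597 CPM in diabetic wounds. All diabetic libraries lay above all normal skin libraries, and replicate 4 lay under the highest healthy wound. This made a log2 fold change of 0.85 against normal skin (SE 0.24, edgeR adjusted p = 0.0232) and 0.64 against healthy wounds (SE 0.24, adjusted p = 0.0921). Without any single library it stayed between 0.70 and 0.94 against normal skin and was called each time. Rpl9 was not called in the fit of the 2 groups alone or without replicates 1 to 3 of the healthy mice. It was also not called with a term for those replicates.

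Rpl24 (chromosome 16, 55966275 to 55971435, plus strand) had the highest fold change of the core genes. Mutation of this gene causes the Belly spot and tail phenotype in mice. Its level was 2.29, 9.43, 4.38, 10.1 and 6.46 CPM in normal skin, 4.40, 4.30, 4.03, 8.60 and 8.49 CPM in healthy wounds and 18.4, 20.5, 14.3, 10.7 and 17.6 CPM in diabetic wounds. Every diabetic library lay above every library of healthy mice. The log2 fold change was 1.33 against normal skin (SE 0.39, edgeR adjusted p = 0.0278) and 1.46 against healthy wounds (SE 0.39, adjusted p = 0.0345), and without a library the calls were lost in 3 and 8 of 15 fits. Within the healthy mice, replicates 4 and 5 of the wound group lay above replicates 1 to 3, and, as given above, the model overlaps an empty one over 98.7% of its span, whose part in these few counts was not tested.

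Rpl18 (chromosome 7, 45715457 to 45720836, plus strand) was called in both diabetic comparisons. It had 618, 341, 502, 592 and 715 CPM in normal skin, 574, 580.0, 602, 729 and 502 CPM in healthy wounds and 1203, 1176, 899.7, 688 and 834 CPM in diabetic wounds. Replicate 4 lay within the range of both other groups and the other 4 diabetic libraries lay above. Its log2 fold change came to 0.82 (SE 0.21, edgeR adjusted p = 0.0178) and 0.71 (SE 0.21, adjusted p = 0.0496) against normal skin and healthy wounds. The call against healthy wounds was lost in 12 of the 15 fits without a library. Its partner on the other strand is Sphk2, with 519 to 1261 counts per library.

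Rpl32 behaved much like Rpl18, with 605, 437, 451, 553 and 563 CPM in normal skin, 505, 501, 562, 658 and 423 CPM in healthy wounds and 1328, 923, 913, 586 and 701 CPM in diabetic wounds. Diabetic replicate 4 was again the lowest of its group and lay within the range of the healthy mice. Rpl32 rose by 0.80 against normal skin (SE 0.22, edgeR adjusted p = 0.0222) and by 0.78 against healthy wounds (SE 0.22, adjusted p = 0.0402), and the second call was lost in 9 of 15 fits without a library. The other called large-subunit genes had log2 fold changes against normal skin of 0.73 for Rpl12, which forms the base of the stalk with Rplp0, 0.74 for Rpl29, 0.84 for Rpl35, which lies at the exit of the peptide tunnel, and 0.98 for Rpl35a. Their edgeR adjusted p-values lay between 0.0246 and 0.0485, and in the fits without a library the call was lost in 1 of 15 for Rpl12, in 3 for Rpl29 and in 12 for Rpl35 and Rpl35a each. Within the healthy mice, the mean log2 level of Rpl35a was 0.84 higher in replicates 4 and 5 than in replicates 1 to 3. Mutations of RPL35A, RPL5, RPL11 and RPS19 cause Diamond-Blackfan anemia in humans.

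Rpl5 and Rpl11, which bind ribosomal RNA together before assembly and restrain Mdm2 when assembly fails, did not pass the threshold. Rpl5 had a mean of 752 ± 107 CPM in normal skin, 761 ± 68.6 in healthy wounds and 1009 ± 318 in diabetic wounds (SD, n = 5 per group). Rpl11 had 501 ± 163 CPM in normal skin, 544 ± 78.2 in healthy wounds and 758 ± 223 in diabetic wounds (SD, n = 5 per group). Their log2 fold changes against normal skin were 0.45 (SE 0.21, edgeR adjusted p = 0.137) and 0.63 (SE 0.26, adjusted p = 0.0986). Rpl38, whose loss in mice alters the translation of Hox mRNAs, stood at 0.45 (SE 0.28) and Rpl10, a late joiner of the subunit, at 0.38 (SE 0.19). Rpl13a had 18.8, 16.8, 19.6, 42.1 and 45.6 CPM in normal skin, 34.1, 32.3, 31.1, 46.8 and 28.5 CPM in healthy wounds and 54.8, 33.5, 41.1, 26.2 and 12.9 CPM in diabetic wounds. Diabetic wounds held both its highest and its lowest library, and normal skin replicates 4 and 5 lay above replicates 1 to 3. Rpl17 stood at 0.00 against normal skin on its own counts, and with its 11 named pseudogenes added it stood at 0.64 (SE 0.21, edgeR adjusted p = 0.0443).

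In the small subunit, Rps25 (chromosome 9, 44407139 to 44410427, plus strand) had the smallest adjusted p in both diabetic comparisons. The protein is needed for initiation at internal entry sites of some viral RNAs. Its level was 538, 387, 464, 433 and 500.1 CPM in normal skin, 461, 442, 479, 498 and 367 CPM in healthy wounds and 1078, 904, 739, 526.004 and 732 CPM in diabetic wounds. Every diabetic library lay above every healthy wound, and replicate 4 lay under the highest normal skin library. The log2 fold change was 0.80 against normal skin (SE 0.19, edgeR adjusted p = 0.0124) and 0.85 against healthy wounds (SE 0.19, adjusted p = 0.0209). It was called in all 15 fits without a library against normal skin and in 12 of 15 against healthy wounds, and it was the only gene called when a term for replicates 1 to 3 of the healthy mice was added. It was not called when those replicates were left out. Rps25 overlaps Trappc4 on the other strand, which had 193 to 685 counts per library.

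Rps6, the substrate of the S6 kinases that act below mTORC1, had 746, 384, 647, 865 and 984 CPM in normal skin, 758, 741, 799.8, 946 and 719 CPM in healthy wounds and 1789.8, 1632, 1315, 937 and 907 CPM in diabetic wounds. Replicates 1 to 3 lay above all libraries of healthy mice, and replicates 4 and 5 lay among them. On the log2 scale the change was 0.89 against normal skin (SE 0.25, edgeR adjusted p = 0.0258) and 0.76 against healthy wounds (SE 0.25, adjusted p = 0.0692). Rps19, needed to mature the RNA of the small subunit, was likewise highest in replicates 1 to 3, with 1131, 883, 759.6, 514 and 583 CPM in diabetic wounds against 221 to 525 CPM in normal skin and 392 to 557 CPM in healthy wounds. It stood at 0.88 against normal skin (SE 0.25, edgeR adjusted p = 0.0270). Rps13 was called in both diabetic comparisons, at 0.72 and 0.74 (SE 0.20 in both, adjusted p = 0.0253 and 0.0373), and Rps23, a protein of the decoding center, was called against normal skin at 0.76 (SE 0.25, adjusted p = 0.0459). Of the 15 fits without a library, Rps6 and Rps19 lost the call against normal skin in 1 and 2, Rps23 in 13, and Rps13 the call against healthy wounds in 7.

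Other small-subunit genes rank among the higher fold changes without a call. Rps28 had log2 fold changes of 0.85 and 0.96 against normal skin and healthy wounds, with an SE of 0.37. Its libraries ran from 43.5 to 166 CPM in normal skin, from 64.7 to 183 CPM in healthy wounds and from 148 to 299 CPM in diabetic wounds. Within the healthy mice, the mean log2 level of Rps28 was 0.94 higher in replicates 4 and 5 than in replicates 1 to 3. Rpsa, which also serves as a laminin receptor, stood at 0.50 and 0.48 with an SE of 0.20 in both, and Rps4x, encoded on the X chromosome, at 0.38 and 0.36 with an SE of 0.22. Rps29 was the lowest core gene against normal skin, at −0.11 (SE 0.31), with normal skin replicate 1 at 324 CPM and the other 4 between 80.2 and 135 CPM. Rps27a was the lowest against healthy wounds, at −0.14 (SE 0.40), and stood at 0.69 without replicates 1 to 3 of the healthy mice. Rps10 stood at 0.04 against normal skin on its few own counts.

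Among the paralogs, Rps27l, which human cells induce through p53, was called in both diabetic comparisons. Its level was 94.7, 39.6, 75.3, 81.7 and 84.4 CPM in normal skin, 63.0, 66.6, 69.8, 85.4 and 54.8 CPM in healthy wounds and 145, 131, 112, 94.3 and 110.1 CPM in diabetic wounds. Every diabetic library lay above every healthy wound, and replicate 4 lay just under the highest normal skin library. The log2 fold change was 0.69 (SE 0.20, edgeR adjusted p = 0.0302) against normal skin and 0.83 (SE 0.20, adjusted p = 0.0281) against healthy wounds, and without a library the calls were lost in 2 and 6 of 15 fits. Its parent Rps27 stood at 0.80 and 0.78 with an SE of 0.36 and was not called. The log2 ratio of Rps27l to Rps27 differed between diabetic and healthy wounds by 0.06 (exact permutation test, two-sided, p = 0.857), within an SD of 0.39 and 0.49 in the 2 groups.

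Rpl22l1, whose mRNA is held down by its parent Rpl22 in mice, had 44.7, 39.6, 56.0, 61.6 and 57.9 CPM in normal skin and 58.7, 60.6, 65.6, 83.7 and 61.1 CPM in healthy wounds. Diabetic wounds had 115, 85.7, 73.4, 52.0 and 46.7 CPM, with replicates 1 and 2 above all libraries of healthy mice and the others within their range. Its log2 ratio to Rpl22 was −2.45 ± 0.294 in normal skin, −2.17 ± 0.129 after wounding of healthy mice and −2.19 ± 0.157 in diabetic wounds (SD, n = 5 per group). The ratio was thus higher by 0.28 in healthy wounds and by 0.26 in diabetic wounds than in normal skin (exact permutation tests, two-sided, p = 0.0556 and 0.0794, each adjusted p = 0.476 over 18 tests). Normal skin replicate 1 stood at −2.94, and the other normal skin libraries lay between −2.47 and −2.20. With 1 library left out at a time the 2 differences ran from 0.156 to 0.341 and from 0.142 to 0.330.

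The other paralog ratios did not pass either. Of 6 pairs in 3 comparisons, 18 tests in all, none had an adjusted p under 0.05, and the smallest p that 5 against 5 libraries allow is 0.00794. The log2 ratio of Rpl3l to Rpl3 differed by −2.04 between healthy wounds and normal skin (exact permutation p = 0.0317, adjusted p = 0.476). Rpl7l1 relative to Rpl7 had an SD of 1.04 in diabetic wounds, against 0.180 in normal skin and 0.196 in healthy wounds: Rpl7l1 itself had 36.6, 58.1, 105.2, 116 and 90.4 CPM in diabetic replicates 1 to 5 and was lowest where the other ribosomal protein genes were highest. Rpl39l, a paralog found mainly in male germ cells, lay between 4.06 and 13.0 CPM in every library, and Rpl36al between 0.514 and 3.88 CPM. Rps27rt, a retrogene of Rps27, ran from 29.7 to 153 CPM within healthy wounds alone. Rps19bp1 had 14.6 ± 7.07 CPM in normal skin, 13.7 ± 2.56 in healthy wounds and 24 ± 5.87 in diabetic wounds (SD, n = 5 per group), with log2 fold changes of 0.75 (SE 0.31, edgeR adjusted p = 0.0916) and 0.83 (SE 0.31, adjusted p = 0.0931) in the diabetic comparisons.

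No gene was called as differing from the core as a whole. When each gene was tested relative to the summed counts of the 77 core genes, edgeR called 0 of 85 in all 3 comparisons, where 0.199% of all genes were called higher and 0.152% lower in healthy wound against normal skin. The background was 2.93% and 19.7% in diabetic wound against normal skin, and 0.637% and 9.4% in diabetic against healthy wound. The core sum had a higher mean share in diabetic wounds, so this scaling moves other genes down there. Core genes are part of that sum and center near 0 by construction. These background shares are therefore no yardstick for the 0 of 85. At an unadjusted p under 0.05, 1, 2 and 3 genes passed in the same order, and no other tool was run on this measure. Relative values in diabetic wound against normal skin ran from −1.18 for Rpl3l to 0.79 for Rpl24. Without diabetic replicate 1, Rpl17 was called lower relative to the rest, at −0.75, and without diabetic replicates 4 and 5 Rpl7l1 was called lower, at −0.96 against normal skin and −0.98 against healthy wounds. As given above, most counts on Rpl17 and its named copies lay on the copies, and this measure was not fitted with those counts added.

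Fau and Rack1, which belong to the same machinery under other names, had positive values against normal skin. Fau, which encodes the small-subunit protein Rps30 fused to a ubiquitin-like protein, rose by 0.79 (SE 0.22, edgeR adjusted p = 0.0255). Rack1, a scaffold on the small subunit, stood at 0.38 (SE 0.18, adjusted p = 0.149). Neither was called in the other comparisons.

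Genes that build ribosomes were called in both diabetic comparisons, but did not follow the ribosomal protein share by library. Their summed level in diabetic replicates 1 to 5 was 2041, 2795, 1606.5, 1886 and 3045 CPM, highest in replicate 5, a library of low share within its group, and lowest in replicate 3. Of 25 ribosome biogenesis genes, 9 were called higher and 0 lower in diabetic against healthy wounds, with a median log2 fold change of 0.73, where 5.13% of all genes were called higher and 4.02% lower. They included Gnl3 (nucleostemin) at 1.32 (SE 0.32), Nolc1 at 1.01 (SE 0.26), Nob1, the nuclease that trims the small-subunit RNA, at 1.00 (SE 0.25), Ncl (nucleolin) at 0.96 (SE 0.23) and Fbl (fibrillarin), a methyltransferase of ribosomal RNA, at 0.92 (SE 0.25). The edgeR adjusted p of these 5 lay between 0.0246 and 0.0364. The other 4 were Pes1, Ftsj3, Utp4 and Nop14. Against normal skin 4 were called higher (Pes1, Gnl3, Utp4 and Nob1; median 0.44 over the list), beside 10.7% of all genes, and in healthy wound against normal skin 0 of 25 were called by edgeR, with a median of −0.26.

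Of 16 translation factor genes, Btf3 was called higher against normal skin, at 0.57 (SE 0.16, edgeR adjusted p = 0.0233), and Naca and Eif3e against healthy wounds, at 0.62 and 0.56 (SE 0.16 in both, adjusted p = 0.0301 and 0.0416). These 1 and 2 calls of 16 stand beside 10.7% and 5.13% of all genes called higher. The 1 call against normal skin is no larger a share than that of all genes. Btf3 and Naca form the complex that shields new chains at the ribosome. The list medians were 0.20 and 0.26, and 0.04 in healthy wound against normal skin, where 0 were called by edgeR. Of 78 mitochondrial ribosomal protein genes, 77 were tested, and 7 were called higher and 2 lower in diabetic wound against normal skin, 9 higher and 0 lower against healthy wounds and 0 in healthy wound against normal skin by edgeR. The first pair of counts is no larger a share than the 10.7% and 8.44% of all genes, and the second stands beside 5.13% and 4.02%.

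Of 17 regulators of ribosome supply, 6 were called higher and 1 lower in diabetic wound against normal skin, beside 10.7% and 8.44% of all genes. Maf1, the repressor of RNA polymerase III, rose by 1.23 (SE 0.19, edgeR adjusted p = 0.00204) and by 1.29 against healthy wounds (SE 0.19, adjusted p = 0.00884). Larp4, which binds poly(A) tails, rose by 0.83 and 0.89 (SE 0.21 in both), and Akt1 rose by 0.67 and 0.45 (SE 0.14 in both). Myc, which drives transcription of ribosomal genes, rose by 1.26 against normal skin (SE 0.37, adjusted p = 0.0303) and stood at 0.92 against healthy wounds (SE 0.37, adjusted p = 0.119). Mxd1, which competes with Myc for Max, rose by 1.42 in diabetic wounds and by 1.40 in healthy wounds against normal skin (SE 0.27 in both, adjusted p = 0.00435 and 0.0271). Of the inhibitors of cap-dependent translation, Eif4ebp1 rose by 1.30 (SE 0.32, adjusted p = 0.0154) and Eif4ebp2 fell by 0.73 (SE 0.19, adjusted p = 0.0183) against normal skin. The mTORC1 kinase gene Mtor stood at −0.07 (SE 0.20).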

How the data were processed

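The authors deposited a gene table of raw read counts, whole numbers, with a column for each of the 15 libraries. Per the labels' protocols the mRNA was captured on poly-T beads and the NEBNext Ultra kit, which keeps no strand information, was used. The sources used here name no aligner, counting program, strand setting or build. CPM are counts divided by the library total and multiplied by 1e6. Gene length, start and end are those deposited. The authors number the diabetic columns 5 to 9; these are replicates 1 to 5 here.

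Counts were tested with edgeR 4.0.16 in R 4.3.3 (quasi-likelihood F-test, robust, TMM scaling with factors from 0.94 to 1.05, filterByExpr) in 1 fit of the 3 groups, with Benjamini-Hochberg adjustment over all 17122 genes tested and a threshold of 0.05. A second fit used the summed counts of the 77 core genes as the library size. Paralog ratios, log2 with 0.5 CPM added, were compared by exact permutation tests in SciPy 1.17.1. The procedure was tested on simulated data. DESeq2 1.42.0 and limma-voom (limma 3.58.1) were alternatives. In each group the libraries differed far beyond counting noise, with a lowest chi-square per degree of freedom of 43.5, 39.8 and 78.3, so none was taken as a repeat. Depth limits only genes of few counts, such as Rps10.

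Named genes are the called genes (up to 12 a comparison by p), the 3 highest and 3 lowest fold changes, the paralog pairs and a fixed list (Rplp0, Rplp1, Rplp2, Rpsa, Rps6, Rpl5, Rpl11, Rpl13a, Rps19, Rpl38, Rps27a, Rpl10 and Rps4x); others were named after their values were seen. The genes, lists and tests were chosen with earlier results of these data known. Some genes are not reported here by name and are left out of the heat map.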

Additional observations from a re-analysis of the deposited data

Results flagged for a closer look

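Of 90 sets of 5 libraries (30 values in 3 groups), 4 held a library set apart from the other 4 by more than Dixon's 95% limit; chance alone flags about 5% of such sets. Rpl17 stood at 456 CPM in diabetic wound replicate 1, where the next highest diabetic library had 199 CPM. Rpl22l1 stood at 83.7 CPM in healthy wound replicate 4, where the next highest had 65.6 CPM. Rpl35a stood at 292 CPM in the same healthy wound library, next to 159 CPM. Rps29 stood at 324 CPM in normal skin replicate 1, next to 135 CPM. The causes were not tested.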

How the results depend on the processing

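In healthy wound against normal skin the count of called genes was 0 under each alternative except DESeq2, which called 1. Against normal skin, diabetic wounds gave 15 calls, and 9 with no low-count filter, 34 with DESeq2, 5 with a replicate block, 0 in a fit of the 2 groups alone, 48 without diabetic replicates 4 and 5, 0 without replicates 1 to 3 of the healthy mice, 1 with a term for those replicates and 4 without normal skin replicate 2 and diabetic replicate 1. Against healthy wounds the 6 calls became 1, 23, 0, 3, 21, 0 and 1 under the first 7 of these settings. Leaving out 1 library at a time gave 4 to 29 and 0 to 17 calls. The share of all genes called under each setting is not set beside these counts. Without replicates 1 to 3 of the healthy mice only their replicates 4 and 5 remain, so that setting has less power. Relative to the core, 1 gene was called without diabetic replicates 4 and 5 in each diabetic comparison and 1 without normal skin replicate 2 and diabetic replicate 1 against normal skin, with 0 to 1 over single libraries. The causes were not tested. The settings that set aside libraries by where they stood, the split term and the added pseudogene counts were chosen after seeing the data.

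Signs changed for some genes that were not called, Rps27a at 0.58 in the healthy comparison among them. In healthy wound against normal skin, without replicates 1 to 3 of the healthy mice and in replicates 4 and 5 alone, Rps27a came to −0.55 and −0.54, Rpl13a to −0.15 and −0.13 and Rps29 to 0.027 and 0.047; Rpl17 came to 0.10 with pseudogenes added. In diabetic wound against normal skin, Rps29 came to 0.0024 with limma-voom, 0.13 without diabetic replicates 4 and 5, 0.19 without replicates 1 to 3 of the healthy mice and 0.049 with the split term, and Rpl7l1 to 0.092 without normal skin replicate 2 and diabetic replicate 1. Against healthy wounds Rpl7l1 came to 0.11 there, Rps27rt to 0.14 with limma-voom, 0.029 with the block, 0.18 without replicates 1 to 3 and 0.14 with the split term, and Rps27a to 0.21 without diabetic replicates 4 and 5, 0.69 without replicates 1 to 3 and 0.072 with the split term. Over single libraries left out, Rps29 ran from −0.42 to 0.18 and Rpl17 from −0.38 to 0.019 in the healthy comparison, Rps29 from −0.29 to 0.34 and Rpl7l1 from −0.16 to 0.18 against normal skin, and Rps27rt from −0.33 to 0.15, Rpl7l1 from −0.24 to 0.10 and Rps27a from −0.35 to 0.030 against healthy wounds.

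Among paralog ratios, Rpl36al against normal skin came to −0.16 with a pseudocount of 2 and −0.36 without diabetic replicates 4 and 5. Without those replicates Rpl3l came to −0.17, Rpl39l to −0.056, Rps27l to −0.11 and Rpl36al to −0.045 against healthy wounds. Without replicates 1 to 3 of the healthy mice Rpl39l came to −0.11 against healthy wounds, and in the healthy comparison Rpl36al to 0.050 and Rpl7l1 to −0.22. Over single libraries the ratios in the healthy comparison ran from −0.52 to 0.016 for Rpl36al, −0.0016 to 0.13 for Rpl7l1 and −0.28 to 0.0043 for Rpl39l. In diabetic wound against normal skin they ran from −0.27 to 0.45 for Rpl36al, −0.27 to 0.052 for Rpl39l and −0.50 to 0.11 for Rpl7l1. Against healthy wounds they ran from −0.11 to 0.22 for Rpl39l, −0.10 to 0.20 for Rps27l, −0.054 to 0.052 for Rpl22l1 and −0.57 to 0.050 for Rpl7l1.

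Replicate numbers did not pair the libraries: same-numbered deviations correlated between −0.21 and 0.24, so the counts of 5 and 0 with the replicate block rest on a shared number alone.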
